A study of Homo sapiens with 131 samples.

Results

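Chromosome 8 of HAP1 cells in mid-S phase was followed here in 3385 bins of 40 kb, of 56881 bins on the 20 chromosomes of the deposited DNA table, and in the 2170 genes on it that carry a DNA copy state, of 45404 such genes in all. HAP1 is a near-haploid human line derived from a leukaemia that carries the BCR-ABL1 fusion. The method, scRR-seq, reads the replication state of the DNA (scRepli-seq) and full-length total RNA (scRamDA-seq) from the same sorted cell. Labels named 63 mid-S cells, each with 1 DNA and 1 RNA library, and 5 G1 DNA libraries. The tables held 56 of the mid-S cells, and 55 of these, with 40 to 70% of their bins replicated, were used except where stated. In a haploid genome a replicated bin has 2 copies and an unreplicated bin has 1 copy. The groups compared were therefore the cells with 2 copies and the cells with 1 copy of a gene, all untreated cells of 1 experiment, so that p-values measure only the spread between these cells.

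Replication timing (RT) is the order in which parts of a chromosome are copied during S phase. Early domains tend to be rich in active genes and to lie in the interior of the nucleus, whereas late domains tend to be poor in genes and to lie at the nuclear lamina or around nucleoli. MYC, the transcription factor gene that drives growth and ribosome production, lies on the long arm of chromosome 8 in a wide region with few protein-coding genes, beside the long non-coding RNA gene PVT1. The region is known for long-range enhancers and is often amplified in cancer.

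The cells fell into 2 library sets that the labels do not name, those numbered up to 65 and those numbered above. Of the 55 cells, 28 were in the first set and 27 in the second. Mitochondrial genes took 4.98 to 18.3% of TPM in the first set and 2.57 to 5.55% in the second, so values within each set are given beside the results they touch. A cell had 12045 to 15028 genes at a TPM of at least 1, of which 405 to 544 were on chromosome 8. BCR had a median of 12.94 TPM and was above 0 in 52 of 55 cells, and ABL1 had 6.05 TPM and was above 0 in 48. These values include any fused transcript and do not show the fusion itself.

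The bins ran from 0.2 to 144.36 Mb (hg38), with 977 on the short arm (8p) and 2408 on the long arm (8q). A call was present in 99.6% of the values. The bins left 17 gaps in which 219 bins were missing. The widest lay at 0.72 to 2.84 Mb, at 43.96 to 46 Mb across the centromere, at 7.16 to 8.24 Mb and at 143 to 143.88 Mb. Genes in these gaps had no copy state.

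Chromosome 8 was chosen by the low share of its bins at 2 copies, so the values of its DNA are a description, with no test. On average 43.7 ± 9.0% of its bins were at 2 copies (SD over cells, n = 55; lowest 27.8%, median 42.6%, highest 61.4%), against 54.4 ± 7.7% of the bins on the other chromosomes. The difference was -10.7 ± 3.4 percentage points, and it ran from -17.2 to -1.72 points, so that chromosome 8 lay below the rest in 55 of 55 cells. Only chromosome 21 had a lower share, 38.7%. The chromosomes next above were 18 and 10, both at 46.4%, and chromosome 5 at 47.4%. Chromosomes 21 and 5 also lay below the rest in all 55 cells, so this constancy was not peculiar to chromosome 8.

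Chromosome 8 was further replicated in the cells whose other chromosomes were further replicated. Over the 55 cells, which share 1 pipeline and its bin calls, Pearson's r between both shares was 0.929 and Spearman's rho was 0.911. Within the library sets r was 0.922 (n = 28) and 0.938 (n = 27), and without the 2 cells farthest from the median it was 0.924. The slope was 1.08 points of chromosome 8 per point of the other chromosomes. The difference itself averaged -10.67 ± 3.08 points in the first set and -10.74 ± 3.72 points in the second (SD). These means differed by 0.066 points, less than the SD between the cells of either set.

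**Figure D1:**
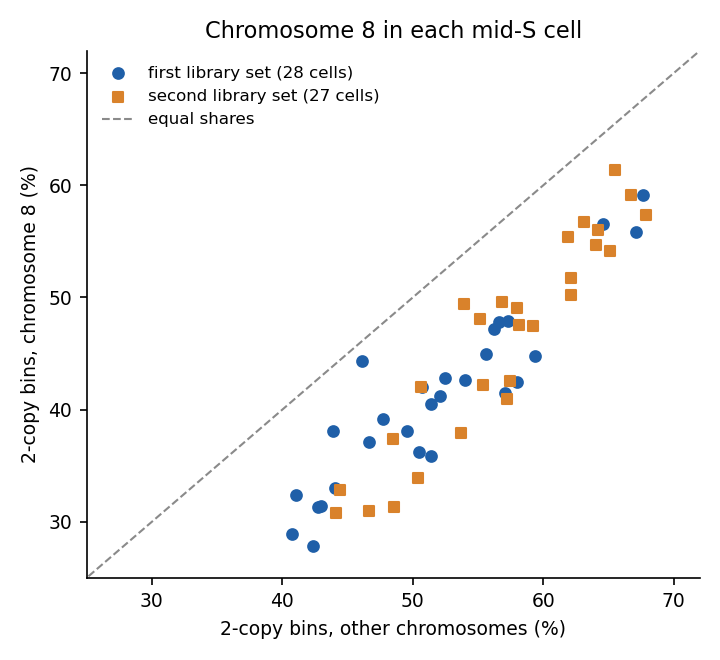
Share of 40-kb bins at 2 copies on chromosome 8 (vertical axis, %) against the share on the other chromosomes (horizontal axis, %), 1 point per cell, with the library sets marked and a line of equal shares. All 55 points lie below the line, at a mean distance of 10.7 percentage points.

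To describe where on the chromosome this low share lay, each bin was given an RT value, the percentage of the 55 cells in which it was at 2 copies. The range over all bins of the table was cut into 9 equal parts, with the highest 2 called early, the lowest 2 called late and the rest mid. On chromosome 8, 38.1% of bins were late (exact 95% binomial interval 36.4 to 39.7%, for counting only, since neighbouring bins are copied together), 36.1% were mid and 25.8% were early. On the other chromosomes 28.8% were late, 32.8% mid and 38.5% early. The difference was thus widest in the early class. In 395 bins, 11.7% of the chromosome, no cell had 2 copies, while 2.81% of bins were at 2 copies in every cell with a call.

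Within a class, values must be alike on any chromosome, since the classes are cuts of the same RT value. Its early bins were at 2 copies in 91.2% of cells, its mid bins in 49.0% and its late bins in 6.60%, against 93.2%, 50.5% and 7.29% on the other chromosomes. From cell to cell the mid bins varied most, which partly follows from how the class is defined. Between 18.2 and 83.9% of them were at 2 copies in a cell, against 74.5 to 100% of early bins and 0.543 to 17.7% of late bins.

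The arms differed. Late bins made up 52.1% of 8p and 32.4% of 8q, mid bins 27.1% and 39.8%, and early bins 20.8% and 27.8%. In a cell, 35.4 ± 9.4% of 8p and 47.0 ± 9.7% of 8q were at 2 copies (SD, n = 55). The difference of 8p minus 8q was -11.6 ± 7.6 points and ran from -28.8 to 6.76 points. The short arm lay below the long arm in 51 of 55 cells.

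**Figure D2:**
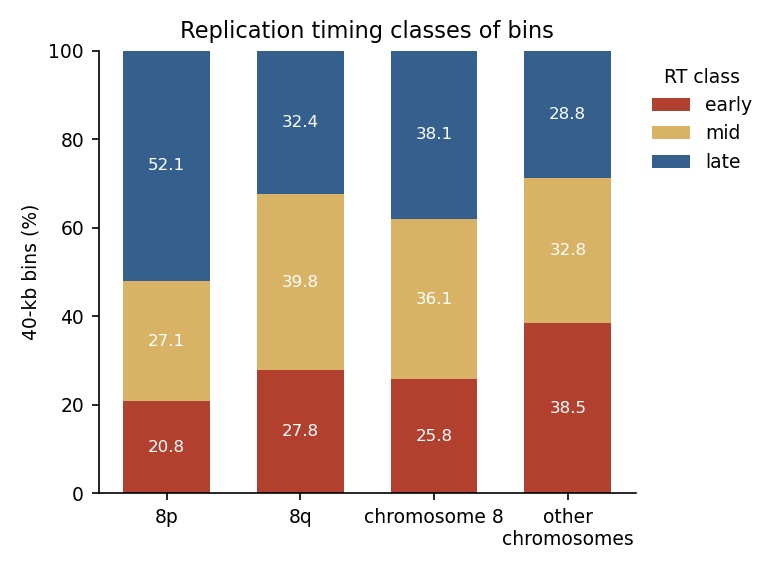
Stacked percentages of 40-kb bins (vertical axis) in the early, mid and late RT classes on 8p, on 8q, on chromosome 8 as a whole and on the other chromosomes. Late bins are 38.1% of chromosome 8 and 52.1% of 8p, against 28.8% of the other chromosomes.

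Bins of a class lay together. The late bins formed 43 stretches, of which 17 spanned 1 Mb or more and held 81.8% of all late bins. The early bins formed 39 stretches, 15 of them of 1 Mb or more, and the mid bins 82 stretches, 18 of them of 1 Mb or more. In single cells the chromosome was broken into 36 to 80 stretches of 2-copy bins (median 53).

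The longest late stretch ran from 130.76 to 139.80 Mb on 8q, 226 bins with a mean RT of 1.85%. Of its bins, 138 were at 2 copies in no cell, and no cell had more than 11.9% of them replicated. It overlapped 85 genes, of which 13 had spliced RNA in over 50% of cells, among them PHF20L1, a chromatin reader, and KHDRBS3, an RNA-binding protein. The next longest was on 8p, from 33.56 to 37.32 Mb, with 94 bins, a mean RT of 2.52% and 67 bins at 2 copies in no cell. The third held MYC and is described next to its RNA. These 3 stretches were at 1 copy over most of their length in every cell.

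Other late stretches differed in how often cells had replicated them. At 12.60 to 15.84 Mb the mean RT was 3.07%, with 47 of 81 bins at 2 copies in no cell, and the genes there included TUSC3, a subunit of the enzyme that attaches sugars to asparagine in new proteins. At 2.96 to 5.08 Mb, across the very long gene CSMD1, the mean RT was 8.68%, but 3 cells had over 50% of the bins at 2 copies and at least 1 cell had all of them. A stretch at 48.60 to 51.56 Mb (mean RT 3.39%) overlapped 28 genes with no gene past the expression filter. At 116.96 to 119.72 Mb, which holds EXT1, a heparan sulphate polymerase, the mean RT was 7.65%, and 2 cells had over 50% of it replicated.

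The longest early stretch ran from 90.40 to 95.36 Mb, 124 bins with a mean RT of 95.9%. Every cell had at least 57.4% of it at 2 copies. Of the genes on it 24 were expressed, led by INTS8, a subunit of the Integrator complex that processes small nuclear RNAs. The early stretch from 59.72 to 63.36 Mb (mean RT 91.9%) held CHD7, a chromatin remodeller, and that from 73.12 to 74.92 Mb (93.7%) held RPL7, a protein of the large ribosomal subunit. On 8p the early stretch from 37.60 to 39.08 Mb (94.2%) held FGFR1, a growth factor receptor, and EIF4EBP1, which restrains translation initiation. Near the end of 8q, the stretch from 140.08 to 141.32 Mb (94.8%) held PTK2 and AGO2, a focal adhesion kinase and the slicing Argonaute of RNA interference.

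Mid stretches were shorter, and by the definition of the class their state varied between cells. The longest, at 82.84 to 85.60 Mb, had a mean RT of 38.5% over 69 bins. In 17 cells over 50% of it was at 2 copies, and in 9 cells none of it was. It held E2F5, a transcription factor of the cell cycle, and CA2, a carbonic anhydrase. Between the MYC stretch and the longest late stretch lay a mid stretch of 34 bins, at 129.40 to 130.76 Mb, with a mean RT of 53.3%. Its expressed genes included CYRIB and ASAP1, both regulators of the actin cytoskeleton. In 32 cells over 50% of this stretch was at 2 copies, against 0 cells for the MYC stretch on its left and 0 for the late stretch on its right.

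MYC (127735434 to 127742951 on chromosome 8, hg38) lay in the late stretch from 125.72 to 129.40 Mb. The stretch had 83 bins with a mean RT of 3.59%. In 31 cells it had no bin at 2 copies and in 24 cells it had at least 1. The cell with the most had 26.5% of the bins at 2 copies. In 38 bins no cell had 2 copies.

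Within this stretch, the bins around MYC were replicated in more cells than those next to them. MYC itself was at 2 copies in 5 of 55 cells (9.09%), and the highest bins near it, 3 just beyond the gene, were at 2 copies in 6 cells (10.9%). Only bins at the edges of the stretch were higher, up to 18.2%. The bins at 2 copies in any cell formed a run of 17 bins, 680 kb, from -295.4 to 384.6 kb relative to the start of MYC. Before the run lay 34 bins (1.36 Mb) at 2 copies in no cell, and after it 3 such bins (120 kb), followed by a second rise to 9.09% of cells in 1 bin. The run at MYC came from 6 cells, with 3 in each library set. The height of the peak at MYC thus rests on few cells, and the second rise was nearly as high.

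Cells with MYC at 2 copies were further into S phase on average, though not outside the range of the others. Their other chromosomes were replicated in 60.8% of bins on average (55.1 to 66.7%), against 53.7% (40.8 to 67.9%) in the 50 cells with MYC at 1 copy. In these 5 cells the 2-copy run that held MYC was 680, 240, 520, 640 and 400 kb long.

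**Figure D3:**
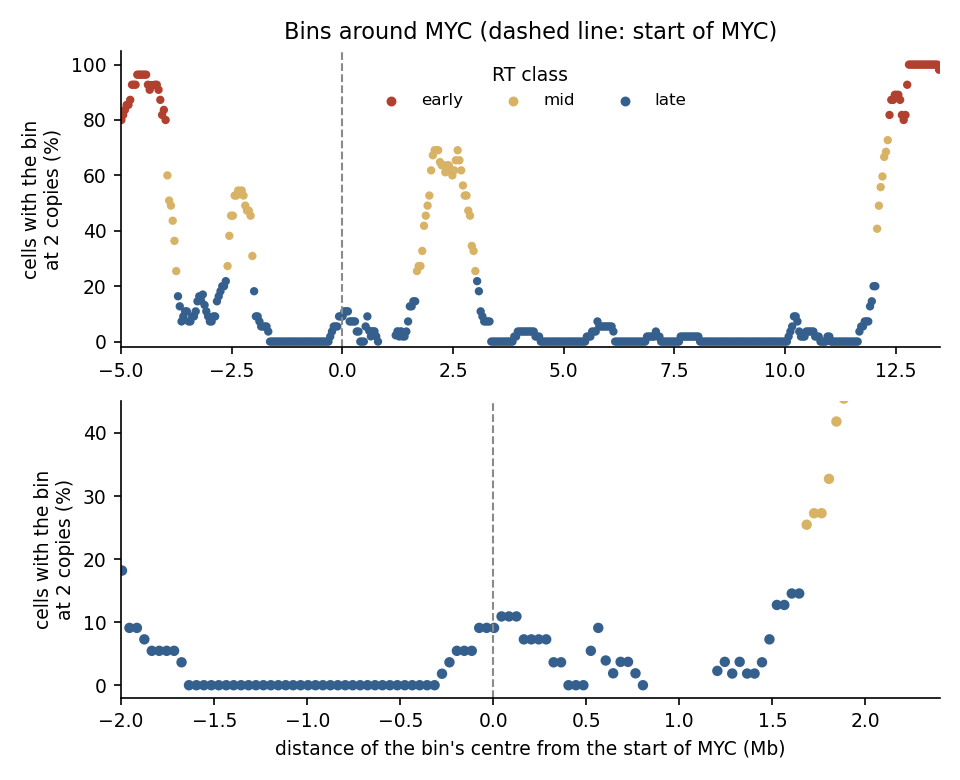
RT, the percentage of cells at 2 copies (vertical axes), of the 40-kb bins around MYC against the distance from the start of MYC (horizontal axes, Mb), coloured by RT class, with the lower panel enlarging the bins nearest to MYC. A small peak of at most 10.9% stands at MYC beyond a long run of bins at 0, a narrower peak of 9.09% follows, and the mid stretch with CYRIB and ASAP1 lies to the right.

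Of the 54 genes of the files in the 4 Mb that hold MYC, 14 had spliced or unspliced RNA in over 50% of cells, or were MYC. Spliced RNA is given in TPM. Unspliced values, titled as TPM, were taken here as reads on the gene body less those on exons, not divided by gene length. Their unit is not certain, and they are called reads only for short. MYC had 146.52 TPM in the lowest cell, a median of 508.94 TPM and 992.66 TPM in the highest, and it was above 0 in all 55 cells. PVT1 had a median of 36.31 TPM (0 to 182.91) and was above 0 in 51 cells. CCDC26, a long non-coding RNA gene known from leukaemia, had 23.29 TPM (0.24 to 75.96). The median of MYC was the highest of all late genes on chromosome 8.

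PRNCR1, a non-coding RNA gene, was the only other gene of the region with TPM above 0 in over 50% of cells (41 of 55), at a median of 0.17 TPM, and its unspliced value was listed at 0 in all 55. The remaining named genes of the region passed this filter as unspliced RNA only. PCAT1, a non-coding RNA gene known from prostate cancer, had an unspliced median of 100.81 reads (38.74 to 284.27), although it was at 2 copies in none of 55 cells. CASC8 and CASC19, non-coding RNA genes named for cancer susceptibility, had unspliced medians of 82.17 and 12.85 reads and were likewise at 1 copy in every cell. The span of PCAT1 (126.556 to 127.419 Mb) holds that of CASC19 (127.073 to 127.228 Mb) and overlaps that of CASC8 (127.29 to 127.482 Mb). Reads in the shared parts cannot be assigned to 1 gene, so these values are not independent. RP11-473O4.5, in the neighbouring mid stretch, had 79.75 reads and was at 2 copies in 69.1% of cells. Its span (129.832 to 129.845 Mb) overlaps that of CYRIB (129.84 to 130.017 Mb), which had a median of 79 TPM. Its reads can therefore not be told apart from those of CYRIB. Unspliced signal in the spans of PCAT1, CASC8 and CASC19 was present in cells that had not replicated them.

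Unspliced MYC RNA was listed at 0 in all 55 cells. CASC11, whose span overlaps MYC (127686343 to 127738987), had an unspliced median of 343 reads, while its spliced median was 0. Across the 55 cells, Spearman's rho between the unspliced value of CASC11 and the TPM of MYC was 0.893, and it was 0.857 and 0.856 within the first and second library sets. Both values come from the same libraries. The sources used here do not say whether counting used the strand, so reads from MYC and from CASC11 cannot be told apart. PVT1 TPM and MYC TPM had a rho of 0.047.

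The level of MYC did not follow its copy state by more than the spread between cells. MYC had 458.06, 956.34, 491.08, 291.11 and 523.64 TPM in the 5 cells with 2 copies, and a median of 512.395 TPM (146.52 to 992.66) in the 50 cells with 1 copy. All 5 values lay within the range of the 1-copy cells. The difference of mean log2(TPM + 1), 2-copy minus 1-copy, was 0.11 ± 0.29 (SE; exact permutation test, two-sided, p = 0.715). Without cell 29, the 2-copy cell with the most MYC RNA, it was -0.12. MYC had a median of 596.2 TPM in the first set and 413.8 TPM in the second, and with each set's mean subtracted the difference was 0.16 (exact permutation p = 0.558).

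PVT1, at 2 copies in 4 cells, gave a like picture. Its median was 30.075 TPM (1.47 to 44.13) in the 4 cells with 2 copies and 36.31 TPM (0 to 182.91) in the 51 cells with 1 copy, a difference of -0.32 ± 1.01 in mean log2(TPM + 1) (SE; exact permutation test, p = 0.766). Its unspliced median was 169.165 reads (36.8 to 680.8) at 2 copies and 226.88 reads (1.6 to 1835.03) at 1 copy, a difference of -0.13 ± 1.06 (exact permutation test, p = 0.926). The values of the 4 cells lay within the range of the 51 others and on both sides of their median, for spliced and for unspliced RNA. The unspliced median was 469.15 reads in the first library set and 109.78 in the second, and the sign of the unspliced difference turned to 0.27 with each set's mean subtracted. Leaving out cell 70 turned it to 0.50, leaving out cell 94 turned it to 0.33, and leaving out cell 70 turned the spliced difference to 0.63. The SE of PVT1 was thus about 1 on the log2 scale, the size of a doubling, and a difference of that size was not detectable with 4 replicated cells.

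**Figure D4:**
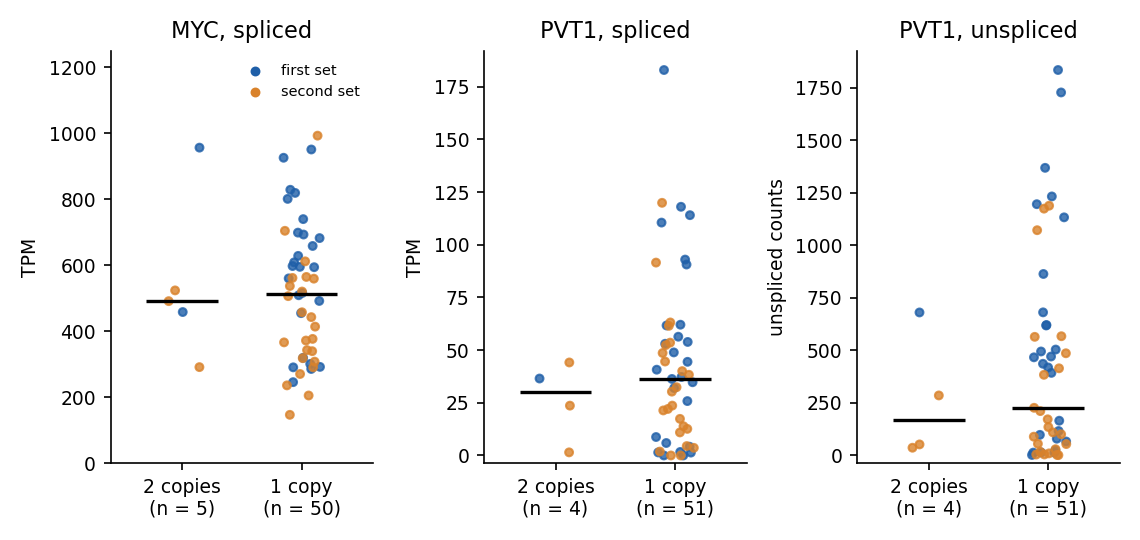
RNA of MYC and PVT1 in single cells (vertical axes, TPM and unspliced reads) by copy state of the gene, 2-copy cells on the left and 1-copy cells on the right, with medians as bars and the library sets in 2 colours. All values of MYC in the 5 cells with 2 copies fall within the range of the 50 cells with 1 copy.

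Over the whole chromosome, expressed genes, those with TPM above 0 in over 50% of cells, were fewer in later classes. Of early, mid and late genes of chromosome 8, 25.4, 17.1 and 10.4% were expressed, against 30.5, 17.4 and 9.30% on the other chromosomes. The median TPM of the expressed genes was 23.68 for early, 25.735 for mid and 12.22 for late genes on chromosome 8, against 20.97, 15.185 and 7.59 on the other chromosomes. The median of the 128 expressed mid genes of chromosome 8 was close to that of its 207 early genes, and which was higher changed with the setting: mid genes had 24.495 and early genes 25.4 TPM in the first library set alone, and 24.54 and 24.565 TPM with classes cut at 80 and 20%. On the other chromosomes mid genes lay between both other classes. In every one of the 55 cells early genes had a higher level than late genes, by 0.298 ± 0.137 in the log10 scale on chromosome 8 and by 0.400 ± 0.0739 on the other chromosomes (SD over cells). Genes are not replicates, and these class values were not tested.

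Of the most abundant early genes, RPL30, of the large ribosomal subunit, had a median of 2144.54 TPM (876.1 to 3889.1), PABPC1, which binds poly(A) tails, 2096.06 TPM, and RPL7 1282.25 TPM. PRKDC, the catalytic kinase of DNA end joining, had 410.81 TPM and YWHAZ, a 14-3-3 adaptor, 406.48 TPM. Each of the 5 was at 2 copies in 89.1% of cells or more.

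The most abundant mid genes were RPS20, of the small ribosomal subunit, at 1545.05 TPM, COX6C, of cytochrome c oxidase, at 479.04 TPM, the translation initiation factor genes EIF3E and EIF3H at 385.33 and 327.06 TPM, and RAD21, of the cohesin ring, at 219.4 TPM. Their RT lay between 24.5% (EIF3E) and 63.6% (RPS20). EIF3H and RAD21 lie in the same mid stretch and are not independent in their copy state.

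Late genes were led by MYC and NDUFB9, a subunit of respiratory complex I. NDUFB9 had 439.73 TPM and was at 2 copies in 8 of 52 cells with a call. INTS10, another Integrator subunit, followed at 94.46 TPM, ATP6V1B2, of the proton pump of lysosomes, at 68.08 TPM and TUSC3 at 66.58 TPM. ATP6V1B2 was at 2 copies in 1 of 55 cells. Spliced RNA of these late genes was thus present although most cells had not replicated them. When this RNA was made was not tested.

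A further 312 genes of chromosome 8 in the gene table had no copy state, of which 64 were expressed. The most abundant were RPL8 (1943.52 TPM) and EEF1D (546.92 TPM), of the ribosome and the elongation factor, followed by CPSF1 of the polyadenylation complex (164.06 TPM), RECQL4, a DNA helicase (125.25 TPM), and PUF60, a splicing factor (98.34 TPM). The RT classes above thus leave out some of the most active genes.

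Lists of genes by function, drawn up with earlier results of these data known, are described by their counts beside those of all 2170 genes with a state, of which 814 were early, 748 mid and 608 late. Of 18 genes listed for the MYC domain, 15 were in the tables, and 12 were late, 3 mid and 0 early. Of 28 genome maintenance genes, 25 had a state, and 13 were early, 10 mid and 2 late, with 27 expressed. MCM4, of the replicative helicase, had 320.41 TPM and was at 2 copies in 87.3% of cells, and ATAD2, a chromatin ATPase, had 137.29 TPM and 92.7%. Of 16 protein synthesis genes, 8 were early, 5 mid and 1 late, and all 16 were expressed. Of 9 mitochondrial genes, 3 were early, 5 mid and 1 late, and all 9 were expressed, among them CYC1 and VDAC3, of complex III and the outer membrane channel, at 193.51 and 148.85 TPM.

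The median RT of these lists was 78.2% for genome maintenance, 88.99% for protein synthesis and 48.1% for mitochondria, beside 60% over all chromosome 8 genes. Developmental regulators, mostly transcription factors of other tissues, had a median RT of 37.9%, with 7 early, 9 mid and 10 late, and 5 of 28 were expressed. The highest were TRPS1, a GATA-type repressor, at 29 TPM and RUNX1T1, a corepressor, at 23.05 TPM. None of the 40 defensin genes, which encode antimicrobial peptides of neutrophils and epithelia, were expressed. Of the 16 defensin genes with a state, 12 were late and 4 mid.

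Genes longer than 600 kb numbered 19, of which 2 were early, 6 mid and 11 late, with a median RT of 15.4%. All 19 had unspliced RNA in over 50% of cells and 7 had spliced RNA. CSMD1, the longest at 2059.6 kb, had an unspliced median of 33.73 reads (9 to 2458.6) with a spliced median of 0, and was at 2 copies in 3 of 55 cells. SGCZ and ZFPM2 were at 2 copies in none. VPS13B, a vesicle trafficking gene with a median of 28.93 TPM, was the most abundant in spliced RNA and was at 2 copies in 21 of 50 cells. NKAIN3 was an early exception, at 2 copies in 50 of 53 cells. Long genes collect more intronic reads at a given level, so their unspliced values are not compared with those of short genes.

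Whether a gene gave more RNA in the cells that had replicated it was asked with a two-sided Wilcoxon rank-sum test of 2-copy against 1-copy cells, over genes expressed in over 50% of cells and with neither state in over 80% of them. For spliced RNA 143 of 2455 genes tested were on chromosome 8. The filter kept 35.9% of the expressed genes of chromosome 8 and 23.2% of those elsewhere. Of the rest, 198 of 398 expressed genes of chromosome 8 were left out for being at 2 copies in nearly all cells, against 6996 of 9972 elsewhere. The median was higher at 2 copies for 81 genes and at 1 copy for 62. After Benjamini-Hochberg adjustment over all genes tested 0 genes passed 0.05, on chromosome 8 as in the whole table (0% called). Unadjusted, 6 of 143 genes had p under 0.05 with more RNA at 2 copies, beside 5.82% of all genes tested, and 2 had more at 1 copy, beside 2.73%. Neither share on chromosome 8 was above that of all genes. By list, the genes under 0.05 were 1 of 5 mitochondrial genes tested (UQCRB), 1 of 2 long genes (RIMS2), 0 of 11 genome maintenance genes and 0 of 5 protein synthesis genes. MTERF3, DECR1 and NSMCE2, named next, are in none of these lists, so the counts do not compare functions.

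The 5 genes of lowest p with the higher values at 2 copies are given as values, since none passed the adjusted test. UQCRB, a subunit of respiratory complex III, had a median of 111.31 TPM (43.73 to 192.83) in 13 cells with 2 copies and 65.58 TPM (12.25 to 188.06) in 42 cells with 1 copy. The difference of mean log2(TPM + 1) was 0.66 ± 0.21 (SE; permutation p of the rank sum 0.0109, adjusted Wilcoxon p 0.454). MTERF3, a regulator of mitochondrial transcription that adjoins UQCRB, had 38.87 TPM (0 to 68.23) in 13 cells with 2 copies and 14.43 TPM (0 to 96.75) in 38 with 1 copy (permutation p 0.0248). UQCRB and MTERF3 had the same copy state in all 51 cells with a call for both, so their results are not independent in the DNA. DECR1, of mitochondrial fatty acid oxidation, had 74.56 TPM in 43 cells with 2 copies and 44.235 TPM in 12 with 1 copy (permutation p 0.0238). RIMS2, of the synaptic release site, had 7.55 TPM in 21 cells with 2 copies and 1.355 TPM in 34 with 1 copy (permutation p 0.0303). NSMCE2, a SUMO ligase of the SMC5/6 complex, had 52.55 TPM in 25 cells with 2 copies and 31.865 TPM in 30 with 1 copy (permutation p 0.0314). In each of the 5 genes the ranges of both states overlapped widely.

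In the other direction MMP16, a membrane metalloproteinase, had a median of 8.23 TPM (0 to 24.29) in 18 cells with 2 copies and 14.68 TPM (0.12 to 56.07) in 37 with 1 copy. The difference was -1.09 ± 0.45 in mean log2(TPM + 1) (SE; permutation p 0.0164, adjusted Wilcoxon p 0.4659). CTA-398F10.1, near 8.41 Mb, had 7.56 TPM in 25 cells with 2 copies and 13.575 TPM in 28 with 1 copy (permutation p 0.0335). Next in order, PPP1R3B and FAM86B3P had permutation p of 0.0701 and 0.139. Alternatives that only change which genes enter leave a gene's own p unchanged. MMP16 had Wilcoxon p of 0.0167 in cells scored 45 to 65%, and 0.0307 and 0.0400 with the S-phase score or library set taken into account. UQCRB had 0.125 with the score and 0.120 with the set taken into account. With the score, RIMS2 had 0.0297, while DECR1, NSMCE2, MTERF3 and CTA-398F10.1 had 0.0541, 0.0642, 0.256 and 0.407. In cells scored 45 to 65%, DECR1 had 0.0215, while NSMCE2, CTA-398F10.1, RIMS2 and MTERF3 had 0.104, 0.172, 0.212 and 0.462.

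For unspliced RNA 187 of 3159 genes tested were on chromosome 8, of which 89 had more in the median 2-copy cell, 88 had more in the median 1-copy cell and 10 had no difference in median. After adjustment 0 passed, again as in the whole table (0% called). Unadjusted, 3 genes had p under 0.05 with more at 2 copies, beside 3.77% of all genes tested, and 2 with more at 1 copy, beside 2.94%. Both counts were below the share in all genes tested, 2.67% of genes on chromosome 8 in both directions together, against 6.71% in all, and this difference was not tested.

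RNF170, a ubiquitin ligase of the endoplasmic reticulum, had an unspliced median of 51.45 reads (0.2 to 479) in 42 cells with 2 copies and 3.7 reads (0 to 94.2) in 13 with 1 copy, a difference of 2.42 ± 0.79 in mean log2(reads + 1) (SE; permutation p 0.00298, adjusted Wilcoxon p 0.430). FDFT1, squalene synthase of the cholesterol pathway, had 16.25 reads (0 to 398.2) in 20 cells with 2 copies and 0.6 reads in 33 with 1 copy, a difference of 2.26 ± 0.76 (permutation p 0.00618, adjusted Wilcoxon p 0.552). ZFAND1, a zinc finger gene, had 0.4 reads in 36 cells with 2 copies and 0 in 18 with 1 copy (permutation p 0.0233). FDFT1 was listed at 0 in 4 of the 20 cells with 2 copies and in 14 of the 33 with 1 copy. RSPO2, a secreted enhancer of WNT signalling, had 1.1 reads (0.1 to 9.6) in 11 cells with 2 copies and 2.725 reads (0 to 23.45) in 38 with 1 copy (permutation p 0.0120). KB-1930G5.4 had 0.53 reads in 38 cells with 2 copies and 1.1 reads in 14 with 1 copy (permutation p 0.0244). Most of these values are few reads per cell. In cells scored 45 to 65%, Wilcoxon p was 0.161 for RNF170, 0.243 for ZFAND1 and 0.246 for KB-1930G5.4. In the same cells it was 0.0107 for FDFT1 and 0.0041 for RSPO2. With the S-phase score taken into account ZFAND1 had a Wilcoxon p of 0.196. Divided by the unspliced total of the cell, RSPO2 had 0.0537 and KB-1930G5.4 had 0.0618. FDFT1 had at most 0.0107 over the alternatives of the Wilcoxon test.

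**Figure D5:**
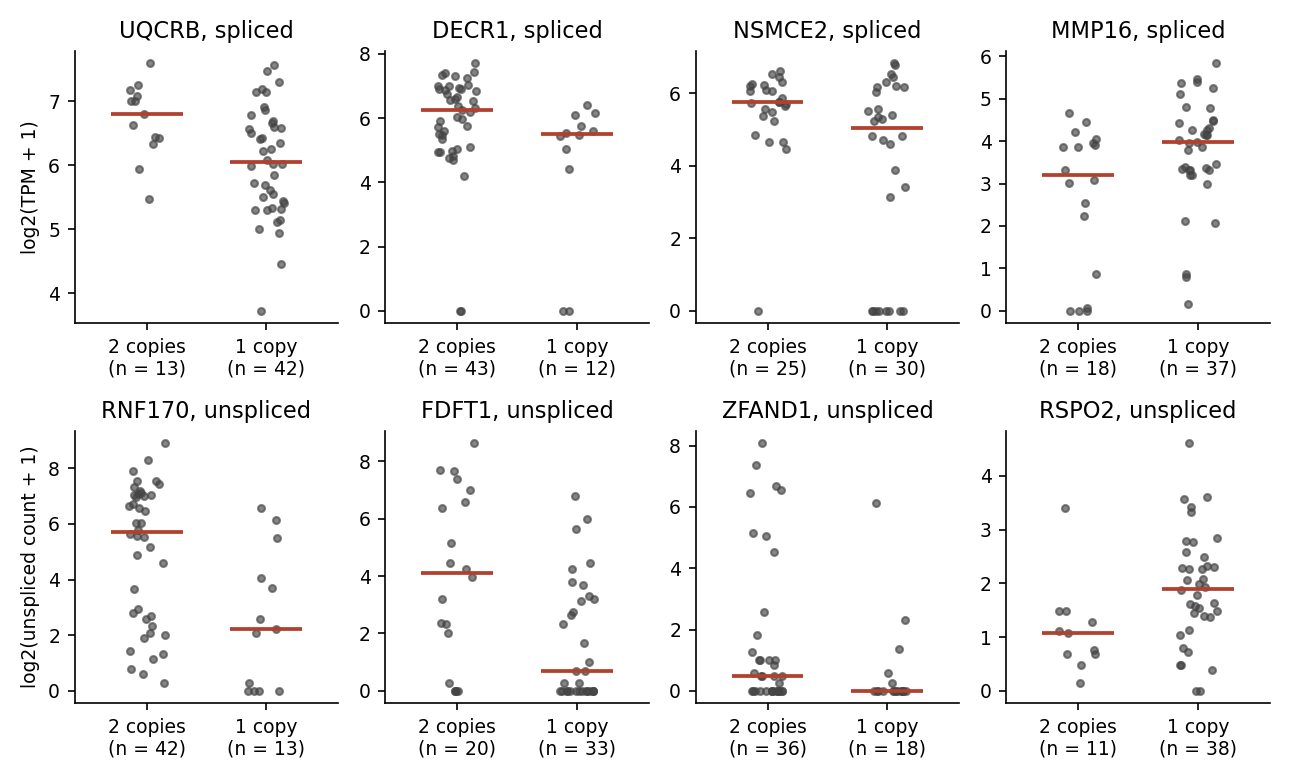
RNA of 8 chromosome 8 genes in single cells by copy state of the gene, 2-copy cells on the left and 1-copy cells on the right, with medians as bars. The upper row gives spliced RNA as log2(TPM + 1) and the lower row unspliced RNA as log2(unspliced count + 1), and in each gene the cells of both states overlap, although the medians lie apart, as for RNF170 (51.45 and 3.7 reads).

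Of 80 genes of chromosome 8 tested for both, 51 had their difference in the same direction and 0 had an unadjusted p under 0.05 in both. When the rounded unspliced reads were put to the quasi-likelihood test of edgeR instead, 9 of 187 genes passed an adjusted p of 0.05, all with more at 2 copies, where 3.7% of all genes tested were called in that direction. They were GOLGA7, RP11-38H17.1, PKIA-AS1, RP11-120I21.2, MAILR, PRSS51, RALYL, CTD-3046C4.1 and LINC01609. The count of calls in unspliced RNA thus depended on the test. The share on chromosome 8 was 4.81% in both directions together, against 5.67% over all genes tested. In earlier work on these data the edgeR test called many genes when DNA and RNA were paired at random. The 9 genes are therefore only listed, and are not read as genes that follow their copy state.

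Change of RNA with progress through mid-S phase was tested by fitting log10(TPM + 1) in a generalized additive model against the share of replicated bins on the other chromosomes, in all 56 cells and 17132 genes, 602 of them on chromosome 8. On chromosome 8, 0 genes passed an adjusted p of 0.05, beside 0.035% (6 genes) of all tested. At an unadjusted p under 0.05, 39 genes of chromosome 8 had a positive trend, beside 5.82% of all genes tested, and 23 a negative one, beside 4.71%. The limma linear trend called 0 as well, with 61 genes under an unadjusted 0.05.

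The 3 genes of lowest p are given as values. EIF3H had a mean of 346 ± 147 TPM (SD, n = 56) and a rho of 0.438 with the score (adjusted p 0.142, mgcv). RP11-419I17.1, a non-coding RNA gene at 12.5 Mb, had 63.3 ± 45.8 TPM and a rho of -0.439 (adjusted p 0.150, mgcv), and it also gave the largest share of unspliced reads of the chromosome, 4.46%. NDUFB9 had 483 ± 216 TPM and a rho of -0.526 (adjusted p 0.208, mgcv). Within the first and second library sets rho was 0.365 and 0.256 for EIF3H, -0.369 and -0.371 for RP11-419I17.1, and -0.467 and -0.266 for NDUFB9. The sets also differed in level, with means of 261 TPM in the first and 437 TPM in the second for EIF3H, 81.4 and 43.9 TPM for RP11-419I17.1, and 592 and 367 TPM for NDUFB9. The second library set was further into S phase (56.4 ± 7.1%, against 50.7 ± 7.8% in the first; SD), and its part in these trends was not tested beyond a fit with the set as a term, in which the adjusted p of the 3 genes ranged from 0.503 to 0.603. Over all alternatives their adjusted p lay between 0.105 and 0.603.

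Chromosome 8 gave 3.40 ± 0.25% of the TPM of nuclear genes in a cell (SD, n = 55; 2.95 to 4.00%). This share had a Spearman's rho of 0.149 with the share of chromosome 8 at 2 copies, and 0.043 and 0.131 within the first and second library sets. Of unspliced reads chromosome 8 gave 4.402 ± 0.66%, with a rho of -0.061. Neither share of RNA followed the share of replicated DNA closely across cells that had between 27.8 and 61.4% of the chromosome replicated.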

How the data were processed

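Reads were processed by the authors. DNA reads were aligned to hg38 (BWA 0.7.17-r1188, as the submitters' processing notes name it), and the deposited state score of each 40-kb bin marks 1 copy, 2 copies or no call. The authors' RNA pipeline gave TPM per gene from libraries reduced to equal read numbers. The study describes unspliced RNA as reads on the gene body less those on exons, with negative values set to 0. The deposited unspliced values are titled as TPM and were treated here as such estimated counts. Their totals ran from 425181 to 1353931 per cell, and their unit is not certain. The highest total exceeds the read number per cell to which the study reduced the RNA libraries. The values are thus not simply the reads of those libraries, each assigned to 1 gene. Chromosomes 1, 15 and X are not in the DNA table and were not analysed here.

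Members, lists and tests were chosen with earlier results of these data known. The S-phase score of a cell was taken over the chromosomes other than 8 for correlations and trends. RT classes, the Wilcoxon copy-state test and the additive model were adapted from the study's methods. Here RT was the share of cells at 2 copies rather than the study's average profile, spliced RNA entered as TPM, and copy-state p-values were adjusted. Genes entered the copy-state test with a value above 0 and a call in over 50% of cells, and the progression test when 20% of cells or more had a TPM of 1 or above. P-values were adjusted by Benjamini-Hochberg over all genes. Permutation tests of single genes used 100000 resamples, or all subsets of cells where called exact, and log2 values had a pseudocount of 1. Unspliced values were rounded for edgeR, which takes them as counts, so its result also rests on this uncertain unit. Genes were named by rule: those between 126 and 130 Mb detected in over 50% of cells, the 5 most abundant of each RT class, the 5 of lowest p in each direction of a copy-state test, up to 6 expressed members of each list, and the 3 of lowest p in the progression test. PHF20L1, KHDRBS3, EXT1, INTS8, CHD7, FGFR1, EIF4EBP1, PTK2, AGO2, E2F5, CA2 and the genes edgeR called fall outside this rule and were chosen after their values were seen. Of the 63 labelled cells, 7 were not in the tables used. Scripts were tested on simulated data. Tools were Python 3.11.15, numpy 2.4.6, pandas 2.3.3, scipy 1.17.1, R 4.3.3, edgeR 4.0.16, DESeq2 1.42.0 (size factors only), limma 3.58.1 and mgcv 1.9.3. TPM carries no read depth. Unspliced counts summed to 425181 to 1353931 per cell. Sequences of chromosome 8 are not reported here. A gene that the naming rule picks is not reported here.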

Additional observations from a re-analysis of the deposited data

How the results depend on the processing

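Of 252 alternative values, 199 were labelled the same as the main value, 28 lost an unadjusted p under 0.05 or fell in count, 13 gained, 5 turned in sign and 7 moved. For a test, the same means an equal direction and side of the threshold. For a count it means within a set fold, and for a share or level within its SD or interval. Alternatives that only change which genes enter leave a gene's own p unchanged, so part of the 199 was fixed in advance. The share of late bins was 42.2% in the first library set, 35.7% in the second and 34.7% with classes cut at 80 and 20%. The count of spliced genes with unadjusted p under 0.05 was 3 in cells scored 45 to 65%, 4 on residuals of the score and 5 with neither state in over 70% of cells. For unspliced RNA it was 11 with values above 0 in over 20% of cells, 3 in over 80%, 8 in cells scored 45 to 65%, 2 with the limit of 70%, and 35 with edgeR under either TMM or DESeq2 size factors, of which 9 and 9 passed adjustment; the cause was not tested. In the progression test 99 genes had an unadjusted p under 0.05 when any cell sufficed, out of 1388 genes.

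Leaving out single 2-copy cells was chosen after seeing the data. The MYC difference then ran from -0.12 to 0.31, that of spliced PVT1 from -0.77 to 0.63 (0.63 without cell 70) and that of unspliced PVT1 from -0.89 to 0.50 (0.50 without cell 70, 0.33 without cell 94). With the mean of the library set subtracted, unspliced PVT1 was at 0.27. Without a filter on low values the median RNA level by RT class was 0 for spliced and for unspliced RNA, since most genes were at 0. No paired analysis was possible because each cell has 1 DNA and 1 RNA library and the comparisons are between cells. All cells come from 1 experiment, and MYC and PVT1 were at 2 copies in 5 and 4 cells, which limits what their difference can show.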
